A study of Mus musculus with 2 samples.

Results

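Translation initiation and elongation factors were compared between effector regulatory T cells of Nrn1+/- and Nrn1-/- mice. The genes were all protein-coding rows whose symbol begins with Eif and a digit or with Eef1 or Eef2, leaving out Eif2ak3, which gave 63 of 21896 protein-coding genes. Both groups came from C57BL/6 mice that also carry the Foxp3DTRgfp allele, in which green fluorescent protein reports Foxp3. The cells were sorted as CD4+, CD25+, CD62L-low, CD44-high and Foxp3gfp+, with 1 library of poly(A) RNA per genotype. The control library has a title that calls it wild type and a genotype label that gives Nrn1+/-, so the contrast is heterozygous against null. Age, and the number of mice behind a library, are not stated in the labels. Levels are in FPKM, which relates the fragments of a gene to its transcript length and to library depth, and pairs of values below stand in the order Nrn1+/- against Nrn1-/-. Bulk values cannot tell fewer cells of a type from less RNA per cell. With 1 library per genotype there is no replicate check and no p-value, and every difference describes these 2 libraries.

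Initiation begins when eIF2, carrying the initiator tRNA, joins the small ribosomal subunit together with eIF1, eIF1A and the large scaffold eIF3. The cap of a messenger RNA is bound by eIF4E, which with the scaffold eIF4G and the helicase eIF4A forms the eIF4F complex, and 4E-BP proteins compete with eIF4G for eIF4E. After eIF5 and eIF5B have brought in the large subunit, eEF1A delivers tRNAs and eEF2 moves the ribosome along. Activated lymphocytes are known for raising translation when they leave rest, under control of mTORC1 acting on 4E-BPs and of kinases that phosphorylate eIF2.

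The targeted gene Nrn1 stood at 66.5 against 4.62 FPKM. The sort genes Cd4 (161 against 155 FPKM), Il2ra (601 against 564 FPKM) and Foxp3 (257 against 195 FPKM) were abundant in both libraries. Cd44, also a sort gene, was higher in the Nrn1-/- library, at 62.4 against 80.5 FPKM. Of 16 markers of B, myeloid, CD8 T, natural killer, erythroid and plasmacytoid dendritic cells, 12 were under 1 FPKM in both libraries. Their summed level was 13.4 against 13.0 FPKM, and Siglech was listed at 0 in both. Genes of dividing cells differed far more than translation factors, with Cdk1 at 51.6 against 146 FPKM and Mki67 at 26.6 against 53.8 FPKM. Their part in the results below was not tested.

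Translation factor transcripts were higher in the Nrn1-/- library as a body, by a modest amount. Of the 63 genes, 59 had a mean of at least 1 FPKM, 3 were listed at 0 in both libraries (Eef1a2, Eif4e1b and Eif2s3y) and Eif4ebp3 was too low (0.459 against 1.16 FPKM). Of the 59, 52 were higher in the Nrn1-/- library and 7 lower, where 54.3% of all 10695 protein-coding genes at this level were higher. The log2 ratio was taken with a pseudocount of 1 FPKM. Its median was 0.31, a 1.24-fold difference, and its middle range ran from 0.11 to 0.44, against a median of 0.04 and a range of -0.19 to 0.26 over all protein-coding genes. Of the 59, 4 genes (6.78%) were at least 1.5-fold higher, near the 7.01% of all genes, and none was at least 1.5-fold lower, where 3.69% of all genes were. A broad shift of many genes, and not a few large ratios, therefore described the group. The transcripts of the 63 genes made up 2.69% of all protein-coding FPKM with Nrn1+/- and 2.92% with Nrn1-/-.

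**Figure D1:**
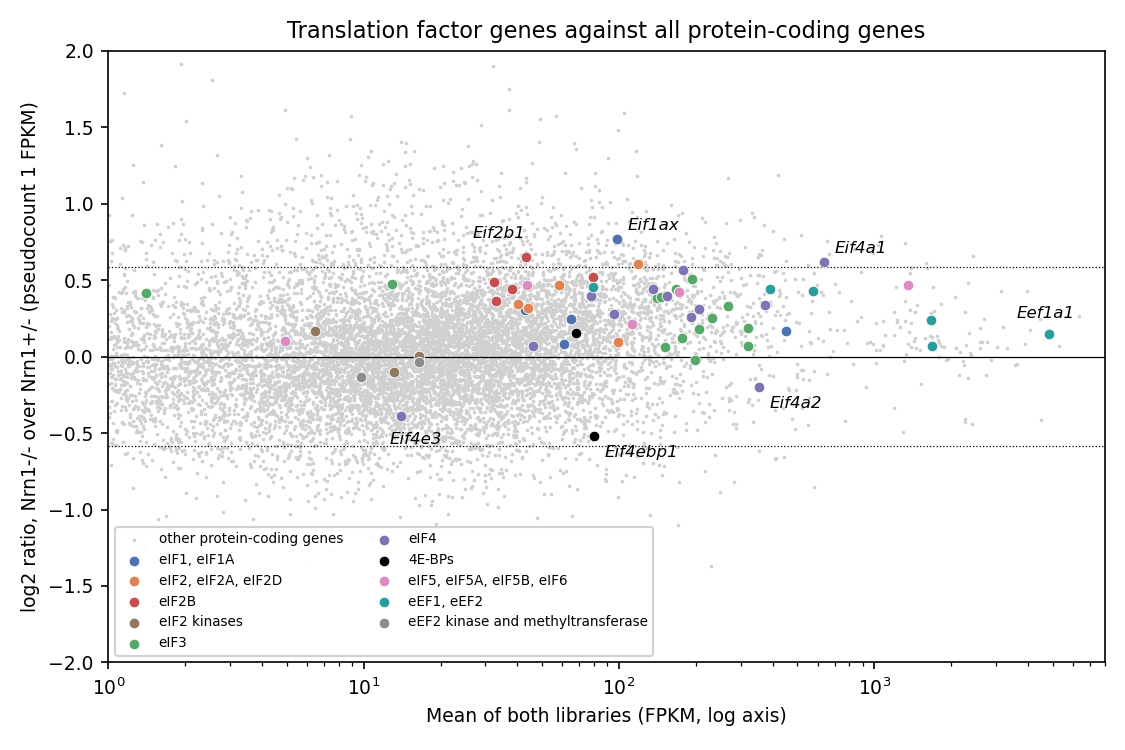
Log2 ratio of Nrn1-/- over Nrn1+/- (vertical axis) against the mean of both libraries in FPKM (horizontal log axis) for protein-coding genes in grey and translation factor genes in colour by role, with dotted lines at 1.5-fold and 3 genes beyond the plotted limits of -2 and 2. The coloured points lie mostly above 0 at high levels, with 52 of 59 higher in the Nrn1-/- library, and Eif4ebp1 is the lowest of them.

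Part of this shift was shared by abundant genes in general. At a mean of at least 50 FPKM, 68.8% of 2244 protein-coding genes were higher in Nrn1-/- cells, and their median log2 ratio was 0.16. Among translation factors at that level, 38 of 41 were higher with a median of 0.31. Those at least 1.5-fold higher were 3 of 41, where 9.49% of all genes at that level were, and none was at least 1.5-fold lower, where 2.67% were. The median of the translation factors thus exceeded that of abundant genes by 0.15 and that of all genes by 0.27.

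The absolute direction depended on how the libraries were scaled. All rows summed to 645876 against 790935 FPKM, and protein-coding rows to 593035 against 647545 FPKM. Most of the gap between the libraries thus lay in rows that are not protein-coding, and scaling over all rows carries it into every gene. Rescaling both libraries to a sum of 1000000 over all rows moved the median of all protein-coding genes to -0.23. It brought the median of the translation factors to 0.02, with 31 of 59 higher, where 24.5% of all protein-coding genes were. Rescaling over protein-coding rows gave medians of -0.08 and 0.18, with 43 of 59 higher, where 40.1% of all were. Such scalings take nearly the same amount from every gene, so the distance between these medians is fixed by their construction and shows no stability. Ratios between 2 transcripts of the same library do not involve any scaling between libraries, and several are given below for that reason.

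At the cap, a binding protein and its target differed in opposite directions. Eif4ebp1, which encodes the 4E-BP that mTORC1 is best known to inactivate and which is also known as a target of ATF4, stood at 94.1 against 65.3 FPKM. It was 1.44-fold lower, with a 95% interval of 1.39 to 1.49 that covers counting error only, and had the most negative log2 ratio of all tested members (-0.52). Its partner Eif4e, the cap-binding protein, went the other way at 115 against 157 FPKM, 1.36-fold higher (1.30 to 1.43). Both directions held under each scaling run. Eif4ebp2, a second 4E-BP, was at 64.3 against 71.9 FPKM, a direction that turned with a sum of 1000000 over all rows.

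Within a library, Eif4ebp1 transcripts amounted to 0.817 of Eif4e in Nrn1+/- cells and 0.416 in Nrn1-/- cells, so the second was 0.509 of the first (0.480 to 0.540). Eif4ebp1 and Eif4ebp2 together amounted to 1.38 against 0.874 of Eif4e. The binding proteins thus outnumbered Eif4e by transcript in the first library and not in the second. Pairs of genes for such ratios were chosen after their values were seen, and transcript ratios say nothing of protein or of its phosphorylation.

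Of the 12 tested eIF4 genes, Eif4e included, 10 were higher, with a median log2 ratio of 0.32. Over all protein-coding genes 54.3% were higher, and 68.8% of those at 50 FPKM or more. Eif4a1, the main helicase subunit of eIF4F, stood at 501 against 768 FPKM, 1.53-fold higher (1.51 to 1.55). Eif4g1, its scaffold, was at 144 against 214 FPKM, 1.48-fold higher. With Eif4e, these transcripts of the core eIF4F complex were all higher in the Nrn1-/- library under every scaling run. The helicase cofactors Eif4b (174 against 208 FPKM) and Eif4h (183 against 227 FPKM) differed less, and Eif4b turned lower with a sum of 1000000 over all rows.

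Relatives of the core genes differed among themselves. Eif4a2, a helicase closely related to Eif4a1, was at 379 against 331 FPKM, 0.873 of the first value (0.859 to 0.886). The ratio of Eif4a1 to Eif4a2 was 1.32 in the first library and 2.32 in the second, 1.76-fold higher (1.72 to 1.79). Exons of Eif4a2 overlap Rfc4 on the opposite strand, which was higher in the Nrn1-/- library (26.4 against 46.3 FPKM), and the sources used here do not give whether counting used strand. A processed pseudogene of Eif4a1, Eif4a-ps4, matches it over 1218 bases at 99.9% identity and was listed at 43.0 against 78.4 FPKM. Adding it and another copy moved the log2 ratio of Eif4a1 from 0.62 to 0.64.

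Eif4g3, a second eIF4G scaffold, stood at 45.0 against 47.2 FPKM, so that Eif4g1 amounted to 3.20 times Eif4g3 in the first library and 4.52 times in the second. Eif4g2, an eIF4G relative that lacks the eIF4E binding region, was more abundant than either at 331 against 419 FPKM. Among cap-binding relatives, Eif4e2 (a repressor-type cap-binding protein) was at 86.6 against 105 FPKM and Eif4e3 at 16.1 against 12.04 FPKM. Eif4e3 had the second most negative log2 ratio of the tested members (-0.39). Eif4a3, a helicase of the exon junction complex, was at 133 against 176 FPKM, and Eif4enif1, the eIF4E transporter, at 67.1 against 88.5 FPKM. Eif4e2 turned lower with a sum of 1000000 over all rows and Eif4g3 with 3 of the 4 scalings, while Eif4g2, Eif4a3 and Eif4enif1 kept their direction.

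**Figure D2:**
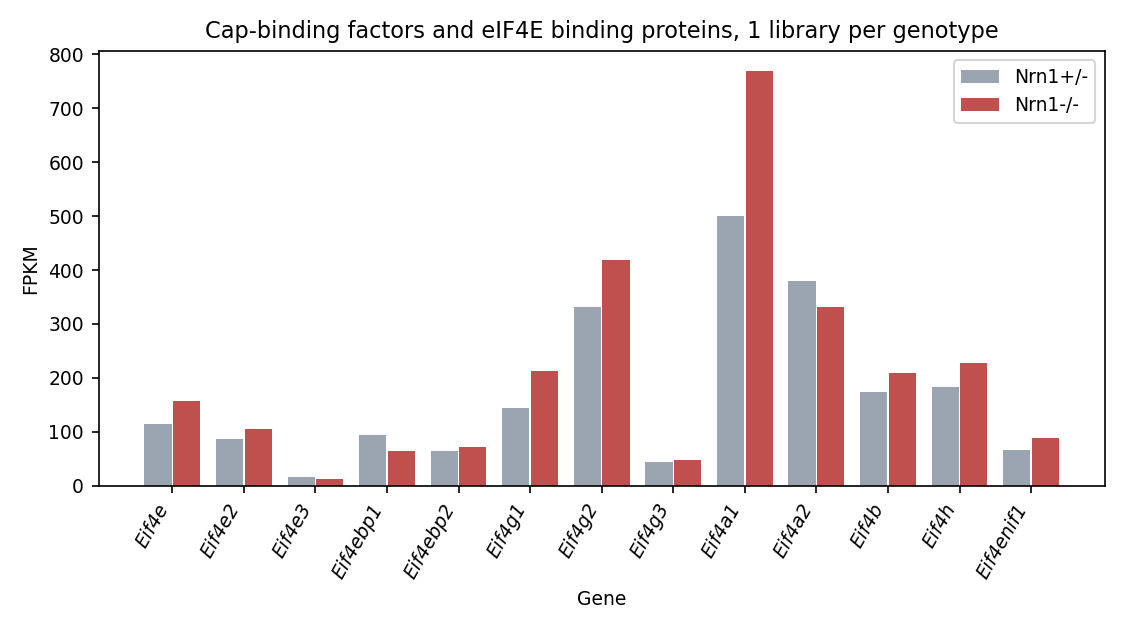
FPKM (vertical axis, from 0) of eIF4 genes other than Eif4a3, and of 2 eIF4E binding proteins (horizontal axis) in the Nrn1+/- library (grey) and the Nrn1-/- library (red), 1 bar per library. Eif4a1 is the most abundant at 501 against 768 FPKM, and Eif4ebp1, Eif4a2 and Eif4e3 are the genes with a lower red bar.

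Promoter sequence of the translation factor genes was also examined, as a description. RefSeq windows (GRCm38.p6) from 250 bases before to 50 after an annotated start were matched for 49 of the 63 genes by symbol. The letters CACGTG, a palindrome that reads the same on both strands and is the E-box bound by MYC family and related factors, were present for 12 of these 49 genes (24.5%). The share was 8.09% over all 27025 genes of the table, and 12.1% over the 8220 protein-coding genes at 1 FPKM or more with a window. Per window it was 21.9% against 7.15%. Stretches upstream of the start are shown for 3 genes of the eIF4 group and for the elongation factor Eef2, 5′ to 3′ on the gene's strand and ending at the last base before the start, with CACGTG in capitals.
Eif4a1, chr11:69672424-69672623, minus strand: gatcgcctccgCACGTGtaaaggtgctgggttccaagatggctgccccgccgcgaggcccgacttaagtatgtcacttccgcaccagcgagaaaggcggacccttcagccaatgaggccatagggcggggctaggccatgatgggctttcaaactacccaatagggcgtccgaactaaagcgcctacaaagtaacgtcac
Eif4g1, chr16:20672607-20672726, plus strand: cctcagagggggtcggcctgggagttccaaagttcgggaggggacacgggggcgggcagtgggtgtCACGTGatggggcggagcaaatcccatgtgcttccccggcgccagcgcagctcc
Eif4h, chr5:134639410-134639549, minus strand: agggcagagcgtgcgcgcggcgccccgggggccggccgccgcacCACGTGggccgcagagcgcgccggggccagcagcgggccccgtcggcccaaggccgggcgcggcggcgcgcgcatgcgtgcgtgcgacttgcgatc
Eef2, chr10:81176531-81176630, plus strand: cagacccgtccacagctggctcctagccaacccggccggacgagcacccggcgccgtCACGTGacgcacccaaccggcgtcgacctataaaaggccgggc

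The motif began 189 bases upstream of the start in Eif4a1, 54 in Eif4g1, 96 in Eif4h and 43 in Eef2. The other genes with it were Eef2k, Eif1b, Eif3a, Eif3f, Eif3k, Eif4e, Eif5a and Eif5a2. Its presence did not go with a larger ratio among the members. The 12 tested genes with CACGTG had a median log2 ratio of 0.27 and the 35 without it 0.31, and Eef2k, which has it, was lower (-0.13). The letters TGATGNAA, searched on both strands as the core of the element bound by ATF4 with CEBP partners, were present for 2 of 49 genes (4.08%), Eef2k and Eif2s3x, against 4.51% of all genes and 2.66% of the 8220 expressed protein-coding genes. Eif4ebp1 is among the 14 genes not matched, so this search did not include it. A match is a description of letters and not a site shown to be bound.

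The second sequence feature examined was the start of the transcript, since mRNAs of elongation factors and of some initiation factors are known to begin with a pyrimidine tract (5′ TOP) through which mTORC1 and LARP1 control them. A C within 5 bases of the annotated start followed by at least 4 pyrimidines was present on the gene's strand for 13 of 49 genes (26.5%), against 21.2% of all genes and 23.8% of the expressed ones. The bases from 5 before to 20 after the start are shown for the elongation factor Eef1a1, for the eIF3 genes Eif3f and Eif3l that differed in ratio, and for Eif4a1, with the tract in capitals.
Eef1a1, chr9:78481705-78481729, minus strand: CCCTCTTCCCgagggtgggggagaa
Eif3f, chr7:108934410-108934434, plus strand: gCTCTCTCTCTTTCTCggcaagatg
Eif3l, chr15:79075218-79075242, plus strand: CTTCTTCCgctctctcccacgggct
Eif4a1, chr11:69672404-69672428, minus strand: gtcacgtcgagttgcagagcgccgg

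The window of Eif4a1 has no tract by this rule. Of the elongation factor genes only Eef1a1 matched the rule. Whether RNA of Eef1a1 begins at that annotated start was not tested, so its capitals may not mark transcribed bases. Eef2 and Eef1b2 counted as without a tract, and Eef1d and Eef1g had no window. The rule therefore does not separate 5′ TOP mRNAs from others. The 12 tested genes with a tract had a median log2 ratio of 0.38 and the 35 without one 0.26, with values from 0.01 to 0.60 among the first. Of the pair of eIF3 genes shown, both with a tract, Eif3f had a log2 ratio of 0.06 and Eif3l one of 0.44. Annotated starts are single bases and can miss the main start of a gene.

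The genes of eIF2B, the exchange factor that reloads eIF2 with GTP and that phosphorylated eIF2 inhibits, were higher as a whole set. All 5 were higher in Nrn1-/- cells, where 54.3% of all protein-coding genes and 68.8% of those at 50 FPKM or more were. Their median log2 ratio was 0.49, the highest of the roles, and all 5 stayed higher under every scaling run. Eif2b1, the alpha subunit, stood at 33.4 against 53.1 FPKM, 1.59-fold higher (1.52 to 1.67). Eif2b2 (beta) was at 64.8 against 93.3 FPKM and Eif2b3 (gamma) at 26.7 against 37.8 FPKM. Eif2b4 (delta) was at 32.3 against 44.3 FPKM and the catalytic epsilon subunit Eif2b5 at 28.7 against 37.2 FPKM. Eif2b2 was thus the most abundant of them in both libraries. Eif2b4 overlaps Snx17 on the other strand, which stood at 48.7 against 45.9 FPKM.

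The substrate of eIF2B, eIF2 itself, was less uniform. Its gamma subunit gene Eif2s3x, on the X chromosome, stood at 94.4 against 144 FPKM, 1.52-fold higher (1.49 to 1.56), and its alpha subunit gene Eif2s1, which carries the phosphorylation site, at 48.7 against 67.8 FPKM. The beta subunit gene Eif2s2 was at 95.8 against 102 FPKM, so that it was nearly level with Eif2s3x in the first library and below it in the second. Within a library, Eif2s3x amounted to 0.986 of Eif2s2 in Nrn1+/- cells and 1.41 in Nrn1-/- cells. The Y-linked copy Eif2s3y was listed at 0 in both libraries, where Xist stood at 143 against 139 FPKM. A processed pseudogene that matches Eif2s3x without mismatch over 1350 bases was listed at 8.20 against 11.6 FPKM. The initiator tRNA factors outside eIF2, Eif2a (39.2 against 49.1 FPKM) and Eif2d (35.4 against 45.2 FPKM), were both higher under every scaling run, as were Eif2s1 and Eif2s3x, whereas Eif2s2 was lower with 3 of the 4 scalings.

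The kinases that phosphorylate eIF2 differed little and were far less abundant than their substrate. Eif2ak1, the heme-regulated kinase, stood at 16.5 FPKM in both libraries, and its exons overlap Aimp2 on the other strand, which was at 45.7 against 68.9 FPKM. Eif2ak2, the double-stranded RNA sensor PKR, was at 13.6 against 12.6 FPKM, and Eif2ak4, the amino acid sensor GCN2, at 6.02 against 6.87 FPKM. Their log2 ratios lay between -0.10 and 0.17. With a sum of 1000000 over all rows all 3 were lower, where 24.5% of all protein-coding genes were higher. Among the phosphatase cofactors that reverse their action, Ppp1r15a, which stress induces, was 1.38-fold lower (24.4 against 17.6 FPKM), while Ppp1r15b was at 41.4 against 40.7 FPKM.

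The eIF1 group was higher for all 5 genes, with a median log2 ratio of 0.25. Over all protein-coding genes 54.3% were higher, and 68.8% of those at 50 FPKM or more. Eif1ax, the X-linked gene of eIF1A, had the largest log2 ratio of all members (0.77). It stood at 72.4 against 124 FPKM, 1.72-fold higher (1.68 to 1.75). Its autosomal relative Eif1a was at 59.5 against 70.8 FPKM, so that Eif1ax amounted to 1.22 times Eif1a in the first library and 1.76 times in the second. Start codon selection factor Eif1 was the most abundant of the group at 424 against 475 FPKM, and its paralog Eif1b was at 59.3 against 62.8 FPKM. Eif1 has 10 near-identical rows elsewhere, which summed to 97.9 against 104 FPKM. Adding them moved the log2 ratio of Eif1 from 0.17 to 0.15. Eif1ad, a gene with an eIF1A domain, was at 38.3 against 47.6 FPKM and overlaps Banf1 (242 against 324 FPKM) on the other strand. With a sum of 1000000 over all rows Eif1 and Eif1a turned lower, and Eif1b did so with 3 of the 4 scalings. The 2 members on the X chromosome, Eif1ax and Eif2s3x, were both among the 4 members at least 1.5-fold higher, beside Eif4a1 and Eif2b1. Eif2s3x was below that fold with a pseudocount of 5 FPKM and under each of the 4 scalings. Eif4a1 was below it under each of the 4 scalings, and Eif2b1 under all except centring on the median of protein-coding genes. Eif1ax was below it with a sum of 1000000 over all rows. Other X-linked genes were not compared, so a part of the chromosome was not tested.

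The subunits of eIF3, the scaffold that holds the small ribosomal subunit, spread widely although they form 1 complex. Of 14 tested genes 13 were higher in Nrn1-/- cells, where 54.3% of all protein-coding genes and 68.8% of those at 50 FPKM or more were. The median log2 ratio of the 14 was 0.29. None was at least 1.5-fold higher by the log2 ratio with its pseudocount, where 7.01% of all genes were. Without the pseudocount Eif3j2, a gene of low level, was 1.65-fold higher. With a sum of 1000000 over all rows 7 were higher and 7 lower, where 24.5% of all protein-coding genes were higher. At the upper end stood Eif3b (159 against 227 FPKM, 1.43-fold), Eif3l (142 against 193 FPKM, 1.36-fold), Eif3d, a subunit that can bind the cap (126 against 166 FPKM), and Eif3a, the largest subunit (122 against 160 FPKM). The loosely bound subunit genes Eif3j1 (10.6 against 15.1 FPKM) and Eif3j2 (1.06 against 1.74 FPKM) also lay there, but they are near-identical copies of each other (99.4% over 2379 bases) and share reads that cannot be assigned.

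At the lower end stood Eif3e (201 against 197 FPKM), Eif3f (148 against 154 FPKM), Eif3h (312 against 328 FPKM) and Eif3m (169 against 184 FPKM). Their log2 ratios were -0.02, 0.06, 0.07 and 0.12, and under at least 2 of the 4 scalings each of them was lower. The subunits f, h and m are known to form a module of their own within eIF3. Between these ends came Eif3i (238 against 299 FPKM), Eif3g (212 against 253 FPKM), Eif3k (298 against 340 FPKM) and Eif3c (192 against 218 FPKM), of which Eif3g, Eif3k and Eif3c turned lower with a sum of 1000000 over all rows. Within a library, Eif3b amounted to 0.793 of Eif3e in Nrn1+/- cells and 1.15 in Nrn1-/- cells, 1.45-fold higher. Subunit order by level was therefore not the same in both libraries, with Eif3e above Eif3b in the first and below it in the second.

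**Figure D3:**
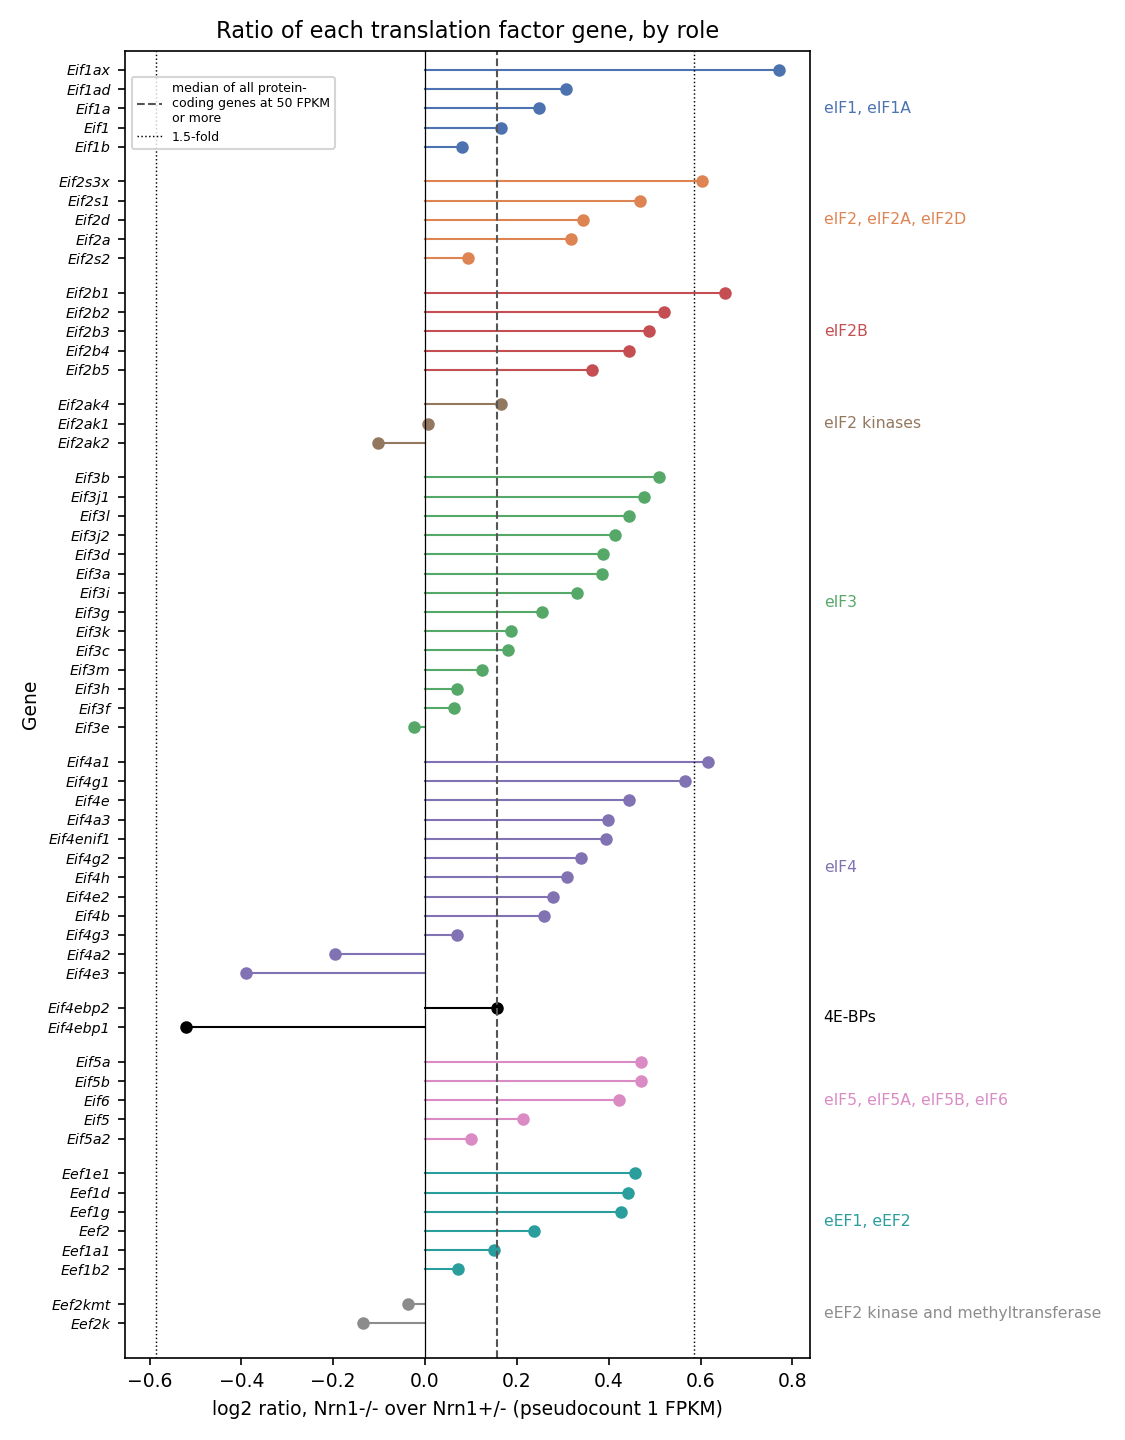
Log2 ratio of Nrn1-/- over Nrn1+/- (horizontal axis) of each of the 59 tested genes (vertical axis), grouped by role, with a dashed line at the median of protein-coding genes at 50 FPKM or more (0.16) and dotted lines at 1.5-fold. All eIF2B genes lie right of the dashed line, eIF3 genes spread from -0.02 to 0.51, and Eif4ebp1 lies farthest left.

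Factors of subunit joining and of eIF5A were higher for all 5 genes, with a median log2 ratio of 0.42. Over all protein-coding genes 54.3% were higher, and 68.8% of those at 50 FPKM or more. Eif5a, the hypusine-carrying factor that helps ribosomes through difficult stretches, was the most abundant at 1138 against 1578 FPKM, 1.39-fold higher (1.37 to 1.40). The enzymes that make its hypusine were both higher, Dhps at 47.2 against 58.5 FPKM and Dohh at 37.6 against 57.5 FPKM. Eif5b, the GTPase of subunit joining, stood at 36.5 against 51.0 FPKM and Eif6, which keeps large subunits apart from small ones, at 147 against 197 FPKM. Eif5, the activator of eIF2 GTP hydrolysis, was at 104 against 120 FPKM, and the paralog Eif5a2 at 4.73 against 5.15 FPKM. Eif5 and Eif5a2 turned lower with a sum of 1000000 over all rows, Eif5a2 also with one over protein-coding rows.

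Elongation factors include the 3 most abundant members, Eef1a1, Eef1b2 and Eef2. All 6 tested genes were higher, with a median log2 ratio of 0.33, where 68.8% of protein-coding genes at 50 FPKM or more were higher. Eef1a1, which delivers tRNAs to the ribosome, stood at 4584 against 5086 FPKM, the third highest mean of all protein-coding genes. Eef2, the translocase, was at 1532 against 1807 FPKM and Eef1b2, an exchange factor of eEF1A, at 1643 against 1726 FPKM. These abundant genes differed by 1.05-fold to 1.18-fold and turned lower with a sum of 1000000 over all rows, Eef1b2 also with 2 other scalings. The other exchange complex subunits Eef1g (491 against 661 FPKM, 1.34-fold) and Eef1d (331 against 450 FPKM, 1.36-fold) differed more and kept their direction under every scaling run. Within a library, Eef1g amounted to 0.299 of Eef1b2 in Nrn1+/- cells and 0.383 in Nrn1-/- cells. Eef1e1, which despite its symbol encodes a scaffold of the tRNA synthetase complex, was at 66.7 against 91.9 FPKM.

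Enzymes that modify eEF2 were much less abundant. Eef2k, the kinase that inhibits eEF2, stood at 10.3 against 9.26 FPKM, 0.902 of the first value. Eef2kmt, the methyltransferase of eEF2, was at 16.7 against 16.3 FPKM, a ratio of 0.973 whose counting interval of 0.905 to 1.048 holds 1. The ratio of Eef2k to Eef2 was 1.31-fold lower in Nrn1-/- cells (1.21 to 1.41). Exons of Eef2kmt overlap those of Alg1 (17.9 against 16.7 FPKM) on the other strand.

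A list of 19 partners and modifiers of these factors had 13 genes higher and 6 lower, with a median log2 ratio of 0.26, where 54.3% of all protein-coding genes and 68.8% of abundant ones were higher. With a sum of 1000000 over all rows 7 were higher and 12 lower, where 24.5% of all protein-coding genes were higher. At least 1.5-fold higher were 2 of 19, where 7.01% of all genes were, namely Pabpc4 (61.5 against 109 FPKM), a cytoplasmic poly(A)-binding protein, and Dohh. At least 1.5-fold lower was 1 of 19, where 3.69% of all genes were, namely Pdcd4 (86.7 against 55.7 FPKM), a tumour suppressor that binds eIF4A and blocks it. Pabpc1, the main poly(A)-binding protein, was at 544 against 720 FPKM, and its inhibitor Paip2 at 104 against 84.3 FPKM. Of the kinases that phosphorylate eIF4E, Mknk2 was at 114 against 139 FPKM, a direction that turned under that scaling, and Mknk1 at 24.3 against 21.4 FPKM. Abcf1, a factor that associates with eIF2, was at 81.7 against 114 FPKM, and Denr, also of this list, at 68.0 against 91.6 FPKM. All 6 genes of termination and ribosome recycling were higher (median 0.39), or 5 of 6 under that scaling, among them Gspt1, the release factor eRF3 (75.3 against 111 FPKM), and Pelo, a ribosome rescue factor (12.8 against 18.9 FPKM).

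Ratios within a library are given for 2 more pairs of an inhibitor and its target. Pdcd4 amounted to 0.173 of Eif4a1 in Nrn1+/- cells and 0.0725 in Nrn1-/- cells, a 2.39-fold lower ratio (2.30 to 2.48). Paip2 amounted to 0.191 of Pabpc1 in Nrn1+/- cells and 0.117 in Nrn1-/- cells, a 1.63-fold lower ratio (1.54 to 1.73). With Eif4ebp1 to Eif4e and Eef2k to Eef2 these made 4 pairs, picked after the values were seen. Eef2, in the last pair, turned lower with a sum of 1000000 over all rows. Other restraining genes were higher as deposited, among them Eif4e2, Eif4enif1 and Eif2ak4, of which Eif4e2 and Eif2ak4 turned lower under that scaling. Paip2b, a relative of Paip2, was at 18.2 against 22.0 FPKM and Eif4ebp2 at 64.3 against 71.9 FPKM. Both of these turned lower with a sum of 1000000 over all rows.

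**Figure D4:**
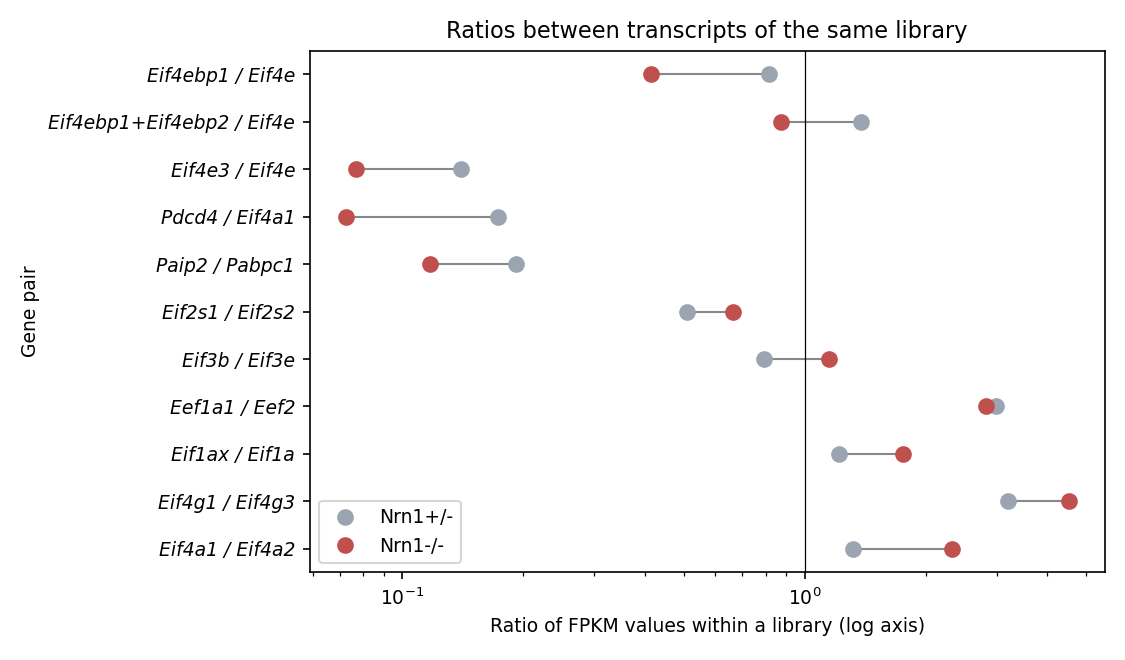
Ratio of FPKM values of 2 transcripts within the same library (horizontal log axis) for gene pairs (vertical axis) in the Nrn1+/- library (grey) and the Nrn1-/- library (red). The upper 5 pairs, with Eif4ebp1, Eif4e3, Pdcd4 or Paip2 in the numerator, lie lower in the Nrn1-/- library, and Eif4a1 over Eif4a2 moves from 1.32 to 2.32.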

How the data were processed

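Poly(A) RNA libraries (NEBNext Ultra, randomly primed, per the labels' protocols) were sequenced from 2 samples, 1 per genotype. The authors deposited FPKM. The unit was read from the values and from the tools in the submitters' processing notes (Cuffnorm, Cuffdiff, TopHat, FastQC), which also list the builds mm10 and GRCm38. The sources used here do not give the annotation, the filters, the scaling between libraries or the use of strand. Rows of the 82 repeated symbols were summed by symbol and type. The log2 ratio was log2((Nrn1-/- + 1)/(Nrn1+/- + 1)), which understates differences of low genes. A gene entered when its mean reached 1 FPKM. Folds carry no pseudocount, and the 1.5-fold threshold applies to the log2 ratio. All members were accounted for, and in subgroups of more than 8 at least the 4 largest ratios and the extreme levels were to be named. From the other lists up to 6 members with the largest ratios were to be named, with members that act on a factor discussed. Pabpc1, Paip2, Paip2b and Mtrf1l were named outside this rule, after their values were seen. Members, lists and motifs were chosen with earlier results of these data known.

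Depth came from low values of genes with 1 transcript in GENCODE M21. FPKM times length less 215 and 200 bases lay within 0.1 of whole multiples of 0.01915 and 0.02535 for 95.9% of 2604 and 96.3% of 2269 genes, where chance gives 20%. Fragment numbers used the median length of basic protein-coding transcripts, so they are approximate. Tested members rested on at least 119 and 149 fragments. The 95% intervals of a gene's ratio are exact binomial (Clopper-Pearson) and those of ratios between genes a normal approximation on the log scale. Both cover counting error only, as no molecular identifiers are named and PCR copies may count as fragments. Near-identical rows (95% over at least 200 bases) were found with BLAST 2.17.0 for 19 members, and for 6 of them they reached 5% of the member's value. Calculations used Python 3.11.15, pandas 2.3.3, numpy 2.4.6 and scipy 1.17.1 and were tested on simulated data. Gene identities and positions are from GENCODE M21 (46000 of 46511 identifiers matched). Promoter windows are from RefSeq on GRCm38.p6. A planned motif search in proteins was not run.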

Additional observations from a re-analysis of the deposited data

How the results depend on the processing

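Alternatives were the pseudocount (0.1 or 5 FPKM), the filter (none, or a mean of 10 FPKM) and 4 scalings. The pseudocounts and filters left the median log2 ratio between 0.28 and 0.32 and gave 3 to 5 genes at least 1.5-fold higher. Rescaling to a sum of 1000000 over all rows gave a median of 0.021, 31 genes higher, 0 past 1.5-fold upward and 2 past it downward (Eif4ebp1 and Eif4e3), where 24.5%, 2.58% and 15.5% of all protein-coding genes were. Over protein-coding rows the median was 0.18, with 1 gene at least 1.5-fold higher (Eif1ax) and 1 lower (Eif4ebp1), where 4.67% and 8.01% of all genes were. Upper-quartile scaling gave the same counts of 1 and 1, where 4.77% and 5.81% were, and centring on the median of protein-coding genes gave 2 higher (Eif1ax and Eif2b1), where 6.01% were. These scalings subtract nearly the same amount from every gene by construction. With no filter, where Eif4ebp3 enters, the median of the eIF4E binding proteins went from -0.18 to 0.16. No paired analysis was possible because each genotype has 1 library, and no library could be left out.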

Other observations

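Mitochondrial translation has its own factors, encoded in the nucleus. Of 9 such genes tested, 8 were higher in Nrn1-/- cells (median log2 ratio 0.24) and 3 were at least 1.5-fold higher, where 54.3% and 7.01% of all protein-coding genes were. These were the elongation factor genes Tufm (41.6 against 66.4 FPKM), Tsfm (27.9 against 44.9 FPKM) and Gfm1 (36.0 against 58.0 FPKM). Mrrf, the recycling factor, stood at 11.7 against 17.7 FPKM, with a log2 ratio of 0.56 that the pseudocount keeps just under the 1.5-fold threshold. Gfm2 (16.2 against 19.0 FPKM) and the initiation factor Mtif2 (17.4 against 19.4 FPKM) differed less. Mtrf1l was the lower one at 7.12 against 6.87 FPKM. With a sum of 1000000 over all rows 5 of the 9 were higher, where 24.5% of all genes were, and Gfm2 and Mtif2 turned lower. The list is small and was not tested.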
